A study of Mus musculus with 6 samples.

Results

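NEDD8 is a small protein, related to ubiquitin, that is joined to other proteins in a process called neddylation, and 10 genes of this pathway were followed in preosteoblasts treated with cyanidin-3-O-glucoside (C3G), the most common anthocyanin of plant foods. The genes were Ube2m, Ube2f, Nedd8, Uba3, Nae1, Cul1, Cul3, Cul4a, Dcun1d1 and Rbx1. They were taken by gene symbol, and all 10 were among the 11234 genes measured. Ube2m was chosen by its lower value in C3G-treated cells in these same libraries, so its group difference is given as a description with no test. The question for the other 9 genes was whether they shared that fall.

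MC3T3-E1 cells, a mouse preosteoblast line labelled as strain C57BL/6 and passage 4, were held in serum-free medium for 24 h in both groups. They were then grown for 24 h in complete medium alone (control, n = 3) or in complete medium with 100 μmol/L C3G (C3G, n = 3). No replicate comes from another line, and nothing in the labels says that the 3 samples of a group came from separate starting cultures, so the p values measure only the spread between these samples. RNA from each sample was sequenced, and levels are FPKM values, fragment counts divided by the length of the gene model and by the total of fragments mapped. This scaling for length lets levels of different genes be set side by side, but FPKM does not give the depth of a library. In bulk RNA, fewer cells expressing a gene and less of its RNA per cell cannot be told apart.

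NEDD8 is first activated by an enzyme made of the Nae1 and Uba3 products. It then passes to 1 of the E2 conjugating enzymes UBE2M and UBE2F, and from there to a cullin protein, with help from the RING protein RBX1 and from DCUN1D1, a co-E3. UBE2M, also called UBC12, serves cullins that carry RBX1, and UBE2F serves the cullin that carries RBX2. Cullins are the scaffolds of the cullin-RING ubiquitin ligases (CRLs), which become active once NEDD8 is attached and which mark proteins for breakdown by the proteasome. In osteoblasts, as in other cells, these ligases control the turnover of signalling proteins and transcription factors.

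One library stood apart from the rest. Control replicate 1 correlated with the other libraries at r = 0.886 to 0.939 across genes on the log2 scale, and the other libraries correlated with each other at r = 0.968 to 0.992. Its median FPKM was 5.80, below the 6.93 to 7.40 of the other libraries. Across all genes, its departure from control replicates 2 and 3 rose with transcript GC content (Spearman's rho = 0.748), and C3G replicate 1 departed from C3G replicates 2 and 3 in the same way (rho = 0.631). Differences of the 10 genes, and those of lists and of genes with the largest difference in a list, are therefore also given without the libraries numbered 1. The osteoblast lineage label was matched by high Col1a1 (923 to 4432 FPKM), Sparc (548 to 901 FPKM) and Spp1 (197 to 323 FPKM), with Runx2 at 5.46 to 9.07 FPKM and Sp7 at 0.237 to 0.857 FPKM. Control replicate 1 stood apart in these markers too, with the 4432 FPKM of Col1a1 where the other 5 libraries held 923 to 1478 FPKM. Ctsk, an osteoclast protease gene, was present at 16.6 to 34.5 FPKM, and its part in the results was not tested. The other 6 of 7 markers of other cell types (Ptprc, Pecam1, Adipoq, Acp5, Myog and Epcam) were not analysed here, as the table used lists only genes that reached a mean FPKM of 0.50 in at least 1 group.

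The GC content of the transcript differed widely among the pathway genes. The longest annotated transcript of Ube2m held 63.4% G and C, a higher share than in 99.1% of all genes, whose median was 49.6%. Cul3 had the lowest share of the 10 genes (38.5%), followed by Nae1 (39.0%), Dcun1d1 (40.3%) and Uba3 (41.0%). The last 120 coding bases of Ube2m and Nae1, stop codon included, are shown because these genes lie near the ends of that range. They are the GENCODE M21 transcripts of the GRCm38 assembly, read 5′ to 3′, with every G and C in capitals.
Ube2m: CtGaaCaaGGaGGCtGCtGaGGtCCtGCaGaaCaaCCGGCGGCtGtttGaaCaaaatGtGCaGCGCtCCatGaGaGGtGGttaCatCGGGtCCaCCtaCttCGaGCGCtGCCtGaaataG
Nae1: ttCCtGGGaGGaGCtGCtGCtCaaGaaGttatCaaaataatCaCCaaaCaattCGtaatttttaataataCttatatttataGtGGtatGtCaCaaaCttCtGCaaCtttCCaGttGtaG
G and C made up 66 of the 120 bases in Ube2m and 40 of the 120 bases in Nae1.

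Ube2m (ENSMUSG00000005575.16) lies on the minus strand of chromosome 7 at 13035120 to 13038275 of GRCm38. None of its exons overlaps an exon of another gene, and its transcript shares 0% of its 75-base stretches with those of other genes. Its coding sequence of 552 bases encodes 183 amino acids. In control cells it measured 50.5 FPKM in replicate 1, 36.3 FPKM in replicate 2 and 35.1 FPKM in replicate 3. With C3G it measured 26.6, 22.1 and 19.6 FPKM in replicates 1, 2 and 3, the order used for all values that follow. Every C3G library was below every control library, and control replicate 1 was the highest of the 6. The mean was 40.6 ± 8.54 FPKM in control cells and 22.8 ± 3.54 FPKM in C3G-treated cells (SD, n = 3 each). The log2 difference of C3G minus control, on log2(FPKM + 1) here and below, was -0.80 with a standard error of 0.21, which is 0.575 of the control level. Groups without overlap and with lower values in C3G were found for 1.48% of all genes, and 0.249% of all genes were called lower, that is, by limma at an unadjusted p under 0.05 with a change of 1.2-fold or more. The fall of Ube2m chose these genes for study, so nothing is read from these shares.

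**Figure D1:**
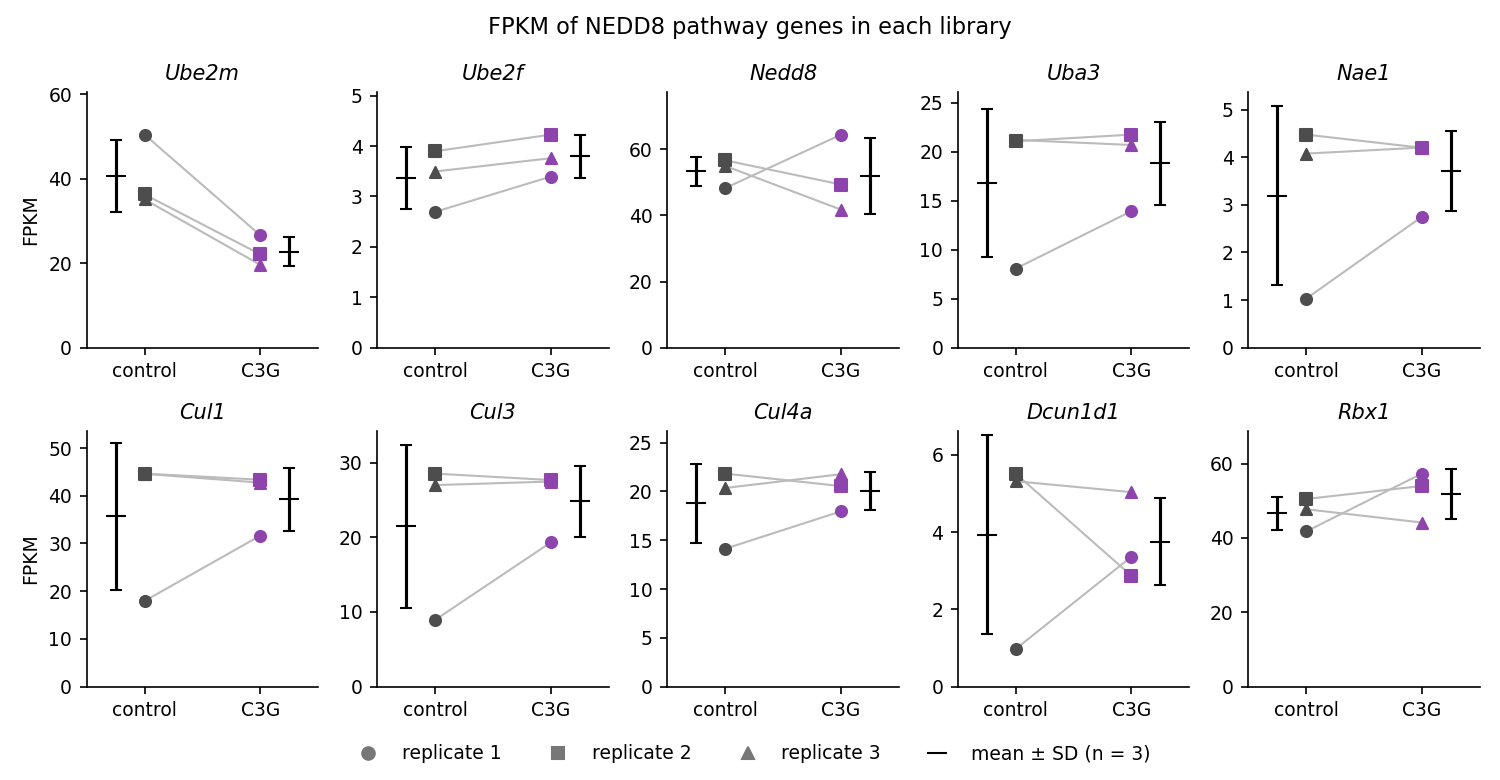
FPKM of the 10 genes in each library, control on the left and C3G on the right of each panel, with the replicate number shown by the symbol, grey lines joining libraries of the same number, and bars for mean ± SD (n = 3). The C3G values of Ube2m (19.6 to 26.6 FPKM) all lie below its control values (35.1 to 50.5 FPKM), while the groups of the other 9 genes overlap.

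The difference in Ube2m is given next by library, as a description of the values that chose it. C3G minus control was -0.90 in the replicates numbered 1, -0.69 in those numbered 2 and -0.81 in those numbered 3. Without control replicate 1 it was -0.64, and with replicates 2 and 3 alone in both groups it was -0.75. With each library corrected for GC content it was -0.55, a shift just over the SD between replicates of 0.25 on the log2 scale. Control replicate 1 lay 0.49 above control replicates 2 and 3 for Ube2m, whereas it lay below them for each of the other 9 genes. How much of the difference goes with GC content in this library was not tested beyond that correction. Ube2m stood at the 90.5th percentile of all genes by mean level in control cells and at the 81.2nd in C3G-treated cells.

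None of the other 9 genes was called in either direction by limma, against 0.650% of all genes called in both directions together. None of the 9 reached an unadjusted p under 0.05, where 74 of all 11234 genes did. The ordinary linear model without moderation also called 0 of the 9. Their smallest p was 0.426 and the Benjamini-Hochberg adjusted p over all genes was 0.992 for each. The 2 groups overlapped for each of the 9. Over all genes, groups without overlap were found for 2.55% with higher and 1.48% with lower values in C3G. With the replicate number as a block, 0 of the 9 were again called, against 1.50% of all genes. At these shares a list of 9 genes would most often hold none, so nothing particular to the 9 is read from these counts. The data do not show that the 9 genes were unchanged, since without the block the intervals of 8 of them reach a 1.2-fold fall. With the block the intervals of Nedd8, Nae1, Cul1, Cul3 and Dcun1d1 reach it. Those of Ube2f, Uba3, Cul4a and Rbx1 stop short of it, with lower ends at -0.176, -0.255, -0.245 and -0.259.

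Ube2f, the gene of the other NEDD8 E2 enzyme, was low in these cells. It measured 2.69, 3.90 and 3.50 FPKM in the control libraries and 3.39, 4.23 and 3.76 FPKM in the C3G libraries. Each C3G library was above the control library of the same number, by 0.25, 0.09 and 0.08 on the log2 scale, but the groups overlapped. The difference of 0.14 (95% confidence interval -0.27 to 0.56) did not pass the test (limma p = 0.441, two-sided exact permutation p = 0.5, where 0.1 is the smallest value 3 against 3 allows). Its difference was 0.09 with replicates 2 and 3 alone. The ratio of Ube2m to Ube2f was 18.7, 9.31 and 10.0 in the control libraries and 7.84, 5.23 and 5.22 in the C3G libraries, on the linear FPKM scale. The control libraries were thus all above the C3G libraries in this ratio, which carries the selected fall of Ube2m and so has no test. The transcript of Ube2f shares 2.29% of its 75-base stretches with transcripts of Gm7099 and Gm5434.

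Nedd8 itself, the gene of the modifier, was the most abundant of the 10 in control cells. It measured 48.3, 56.6 and 54.9 FPKM in the control libraries and 64.4, 49.3 and 41.7 FPKM in the C3G libraries. The C3G libraries spanned the whole range, from the highest value of the 6 to the lowest. The means were 53.3 ± 4.43 and 51.8 ± 11.6 FPKM, and the difference of -0.06 (95% confidence interval -0.53 to 0.42) did not pass the test (limma p = 0.778, exact permutation p = 0.9). Among the same-numbered replicates it was 0.41, -0.20 and -0.39. With replicates 2 and 3 alone, Nedd8 differed by -0.29 (95% confidence interval -0.55 to -0.03, limma adjusted p = 1) and was called, the only one of the 9 genes that was, where 1.70% of all genes were called. It was not called in any of the other 15 alternatives tried. Exons of Nedd8 overlap those of Gmpr2 on the opposite strand and 14.7% of its 75-base stretches occur in Gmpr2, so the values of Nedd8 are uncertain where reads were not assigned by strand.

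The activating enzyme genes gave no difference beyond the spread. Uba3, the catalytic subunit, measured 8.08, 21.1 and 21.2 FPKM in control libraries and 14.0, 21.8 and 20.7 FPKM in C3G libraries. Nae1, the regulatory subunit, measured 1.03, 4.47 and 4.07 FPKM in control libraries and 2.75, 4.20 and 4.20 FPKM in C3G libraries. In both genes the 2 libraries numbered 1 were the lowest, and control replicate 1 was lower still than C3G replicate 1. The differences were 0.24 for Uba3 (limma p = 0.547, exact permutation p = 0.7) and 0.28 for Nae1 (limma p = 0.50, exact permutation p = 0.8). With replicates 2 and 3 alone they were 0.01 and -0.02.

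The cullin genes showed the same arrangement of libraries. Cul1, the scaffold of the SKP1 and F-box ligases, measured 18.0, 44.6 and 44.6 FPKM in control libraries and 31.7, 43.4 and 42.8 FPKM in C3G libraries. Cul3, the scaffold of the BTB-protein ligases such as that of KEAP1, measured 8.92, 28.5 and 27.0 FPKM in control libraries and 19.3, 27.7 and 27.5 FPKM in C3G libraries. Cul4a, the scaffold of the DDB1 ligases, measured 14.1, 21.8 and 20.4 FPKM in control libraries and 18.0, 20.5 and 21.8 FPKM in C3G libraries. Control replicate 1 was the lowest library for each of the 3 cullins, and C3G replicate 1 was the next lowest. The differences were 0.23, 0.34 and 0.11 for Cul1, Cul3 and Cul4a, with limma p = 0.555, 0.461 and 0.60 and exact permutation p = 1, 0.8 and 0.7. Their 95% confidence intervals ran from -0.65 to 1.10, from -0.69 to 1.37 and from -0.37 to 0.59. With replicates 2 and 3 alone the differences were -0.05, -0.01 and 0.00.

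Rbx1, the RING protein that recruits the E2 to the cullin, measured 41.8, 50.5 and 47.7 FPKM in control libraries and 57.3, 54.0 and 44.2 FPKM in C3G libraries. Its difference of 0.14 had the narrowest interval of the 9 genes without the block (-0.26 to 0.55, limma p = 0.426, exact permutation p = 0.4). The difference was -0.01 with replicates 2 and 3 alone. Dcun1d1, which speeds the transfer of NEDD8 to cullins, measured 0.976, 5.52 and 5.32 FPKM in control libraries and 3.37, 2.87 and 5.04 FPKM in C3G libraries. The C3G libraries all lay between the lowest and the next control library. Its difference of 0.11 had the widest interval of the 9 (-1.03 to 1.25, limma p = 0.827, exact permutation p = 1). With replicates 2 and 3 alone it was -0.41 (95% confidence interval -0.96 to 0.14) and was not called, with the fall in replicate 2 (-0.75) and little in replicate 3 (-0.07). Dcun1d1 shares 33.4% of its 75-base stretches with Tes3-ps and Gm15952, so its values are uncertain.

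**Figure D2:**
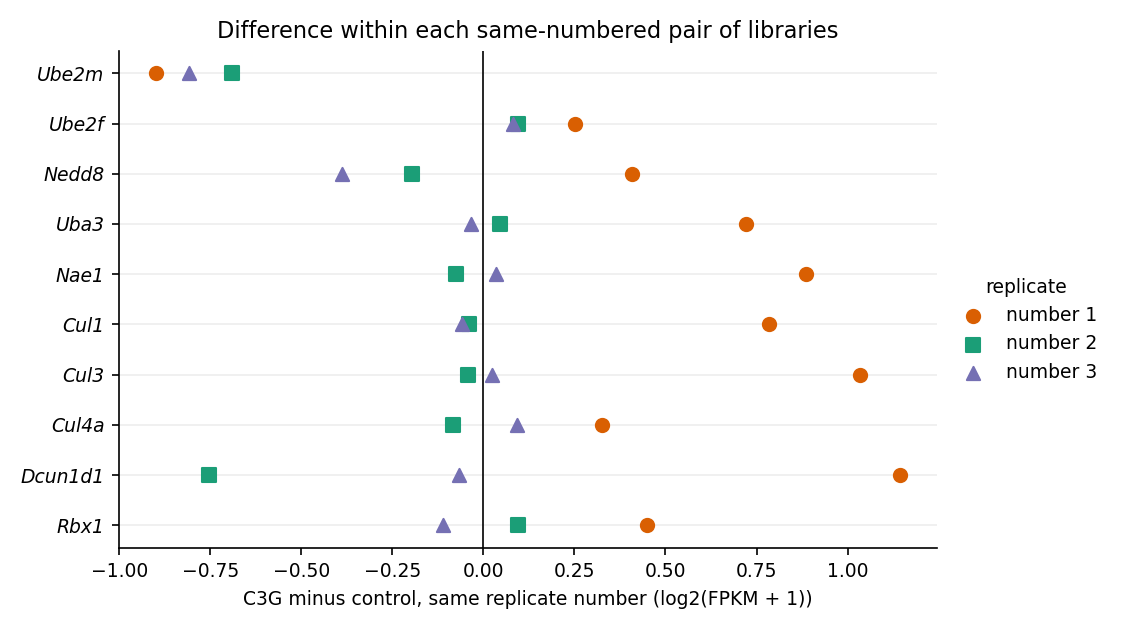
C3G minus control on the log2(FPKM + 1) scale within libraries of the same replicate number, with 1 row for each of the 10 genes and 1 symbol for each number. Ube2m lies at -0.90 to -0.69 in all 3 numbers, while the other 9 genes lie at 0.25 to 1.14 in number 1, at -0.75 to 0.10 in number 2 and at -0.39 to 0.09 in number 3.

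Within same-numbered replicates, the other 9 genes were all above 0 in number 1, where 3 of the 9 were above 0 in number 2 and 4 of the 9 in number 3. Each of the 9 had its highest difference in number 1. Control replicate 1 held the lowest value of the 6 libraries for 8 of the 9 genes, the exception being Nedd8. Over all 6 libraries 8 of the 9 were higher in C3G, with a median difference of 0.14. Over all genes 6960 of 11234 were higher, with a median of 0.06. With replicates 2 and 3 alone 6 of the 9 were lower, with a median of -0.01 beside -0.01 over all genes. Without control replicate 1 alone, 7 of the 9 were lower, with a median of -0.17 beside -0.01 over all genes, and 0 were called. The direction of the 9 genes as a list thus changed with the libraries numbered 1.

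The departure of control replicate 1 followed GC content among the 10 genes, with a Spearman's rho of 0.879 over 10 genes measured in the same libraries. By the GC content of the coding sequence alone it was 0.867. Control replicate 1 lay 1.70 below control replicates 2 and 3 for Dcun1d1, 1.53 below for Cul3 and 1.38 below for Nae1, which are low in GC, as in the Nae1 stretch printed above. Rbx1 was an exception by its longest transcript, at 42.5% GC and only 0.23 below. Its coding sequence held 53.5% GC, beside 53.1% for that of Ube2m. Control replicate 1 lay 0.21 below for Nedd8, with 54.7% GC, and 0.49 above them for Ube2m. After GC correction the differences of the 9 genes ran from -0.12 for Dcun1d1 to 0.08 for Cul1, and 6 of the 9 were above 0.

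**Figure D3:**
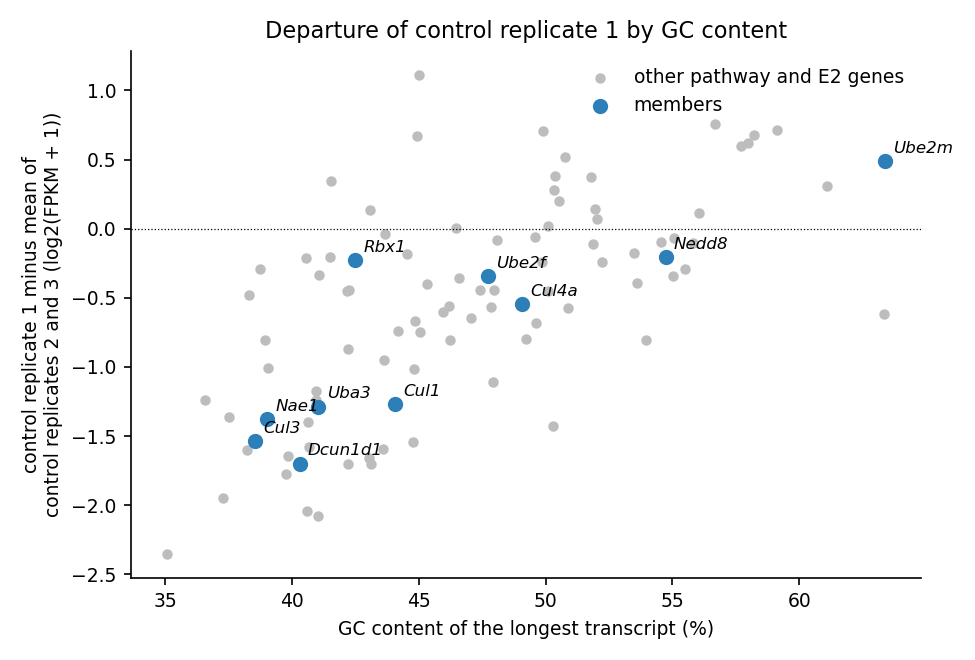
Control replicate 1 minus the mean of control replicates 2 and 3 on the log2(FPKM + 1) scale, against the GC content (%) of the longest transcript, for the 10 genes (blue) and other pathway and E2 genes (grey). Ube2m, at 63.4% GC, lies at 0.49, and Dcun1d1, at 40.3% GC, lies at -1.70.

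By mean FPKM in control cells the order was Nedd8 (53.3), Rbx1 (46.7), Ube2m (40.6), Cul1 (35.7), Cul3 (21.5), Cul4a (18.8), Uba3 (16.8), Dcun1d1 (3.94), Ube2f (3.36) and Nae1 (3.19). Neighbours in this order overlapped in their libraries, apart from Uba3 and Dcun1d1. In C3G-treated cells Rbx1 (51.82) and Nedd8 (51.81) led, followed by Cul1 (39.3), Cul3 (24.8) and Ube2m (22.8), with no overlap between Cul1 and Cul3. Ube2m was thus in the third place in control cells and in the fifth with C3G, where its libraries overlapped those of Cul3. Its place above Cul1 in control cells came from control replicate 1 (50.5 against 18.0 FPKM), as Ube2m was already below Cul1 in control replicates 2 (36.3 against 44.6 FPKM) and 3 (35.1 against 44.6 FPKM). The ratio of Ube2m to Rbx1, its RING partner, was 1.21, 0.719 and 0.736 in control libraries and 0.464, 0.409 and 0.444 in C3G libraries. The ratio of Ube2m to Nedd8 was 1.05, 0.641 and 0.639 in control libraries and 0.413, 0.448 and 0.470 in C3G libraries. Both ratios separated the groups, and both again carry the selected fall of Ube2m.

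A further 60 genes of the pathway were counted from lists of their roles. None was called by limma, none reached an unadjusted p under 0.05, and the ordinary linear model called 0. At the 0.650% called among all genes, a list of this size would often hold no call, so nothing particular to the pathway is read from this count. Of the 60 genes, 44 were higher and 16 lower in C3G, with a median difference of 0.10, and with replicates 2 and 3 alone 16 were higher and 44 lower, with a median of -0.04. Without control replicate 1 alone 22 were higher, with a median of -0.07. After GC correction 30 of the 60 were higher. Of all 11234 genes, 6960 were higher over all libraries and 5059 with replicates 2 and 3. Without control replicate 1 alone 5297 of all genes were higher, and after GC correction 5575. The split thus changed with the libraries numbered 1 and with GC correction, both in the 60 and over all genes. The lowest of the 60 was Vhl, the substrate receptor for hypoxia-inducible factors, at -0.31, and at -0.40 with replicates 2 and 3.

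Each role had the same outcome of 0 genes called. The 5 other conjugation genes, the RBX2 gene and co-E3 genes, ran from -0.11 to 0.53. Dcun1d2, a relative of Dcun1d1, had the largest difference among them, with 1.12, 4.57 and 4.82 FPKM in control libraries and 3.39, 6.35 and 5.41 FPKM in C3G libraries. It was higher in C3G in each number, but the groups overlapped and it did not pass the test (0.53, limma p = 0.253, exact permutation p = 0.5, and limma p = 0.0549 with the replicate block). It was 0.27 with replicates 2 and 3 alone and 0.06 without control replicate 1 alone. The list's median was 0.09 over all libraries and -0.04 with replicates 2 and 3. Among 4 other cullins (Cul9 was not analysed here) the largest difference was that of Cul2, with 1.91, 11.8 and 10.2 FPKM in control libraries and 8.21, 10.6 and 10.4 FPKM in C3G libraries. Their median was 0.29 over all libraries and -0.06 with replicates 2 and 3. The difference of Cul2 was 0.52 over all libraries (limma p = 0.378, exact permutation p = 0.8) and -0.06 with replicates 2 and 3 alone.

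The 12 genes that remove NEDD8 are those of the COP9 signalosome, which strips NEDD8 from cullins, and of NEDD8 proteases. Cops2, a signalosome subunit, had the largest difference of the 60 genes, with 10.7, 46.6 and 41.4 FPKM in control libraries and 39.2, 47.4 and 42.3 FPKM in C3G libraries. Control replicate 1 alone was low, and the difference of 0.61 (limma p = 0.278, exact permutation p = 0.6) was 0.03 with replicates 2 and 3. Cops5, the subunit that cuts NEDD8 off, stood at 0.19 (limma p = 0.483, exact permutation p = 0.9) and at -0.07 with replicates 2 and 3. Of the 4 genes of cullin exchange and inhibition, Cand1, which swaps substrate receptors on cullins, was near level in all libraries at 44.2 to 51.4 FPKM, with a difference of -0.01 (limma p = 0.961, exact permutation p = 0.9). Glmn, an inhibitor of RBX1, measured 0.236, 3.20 and 3.25 FPKM in control libraries and 2.70, 3.35 and 2.81 FPKM in C3G libraries (0.49, limma p = 0.335, exact permutation p = 0.8). It turned to -0.05 with replicates 2 and 3 alone and to -0.10 without control replicate 1 alone. The medians of the 12 and of the 4 genes were 0.18 and -0.02 over all libraries and -0.03 and -0.02 with replicates 2 and 3.

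The 26 adaptor and receptor genes of the CRLs had a median difference of 0.08 and ran from -0.31 to 0.45. Their median was -0.05 with replicates 2 and 3 alone, where 6 were higher and 20 lower. Skp1a, the adaptor of CUL1, was the highest, with 31.0, 90.1 and 94.5 FPKM in control libraries and 84.0, 93.8 and 86.6 FPKM in C3G libraries (0.45, limma p = 0.322, exact permutation p = 0.9), and stood at -0.03 with replicates 2 and 3. The 9 genes of ubiquitin enzymes that work with neddylated cullins had a median of 0.06, which turned to -0.07 with replicates 2 and 3 alone, where 1 was higher and 8 lower. Arih1, an E3 that docks on neddylated cullins, stood highest among them at 0.42 (limma p = 0.408, exact permutation p = 0.7) and at 0.00 with replicates 2 and 3 alone. In both lists the named gene was lowest in control replicate 1. After GC correction Skp1a stood at 0.31 and Arih1 at 0.25, and the medians of the 26 and of the 9 genes were -0.02 and 0.02. The part of that library's GC dependence in these values was not tested beyond that correction.

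**Figure D4:**
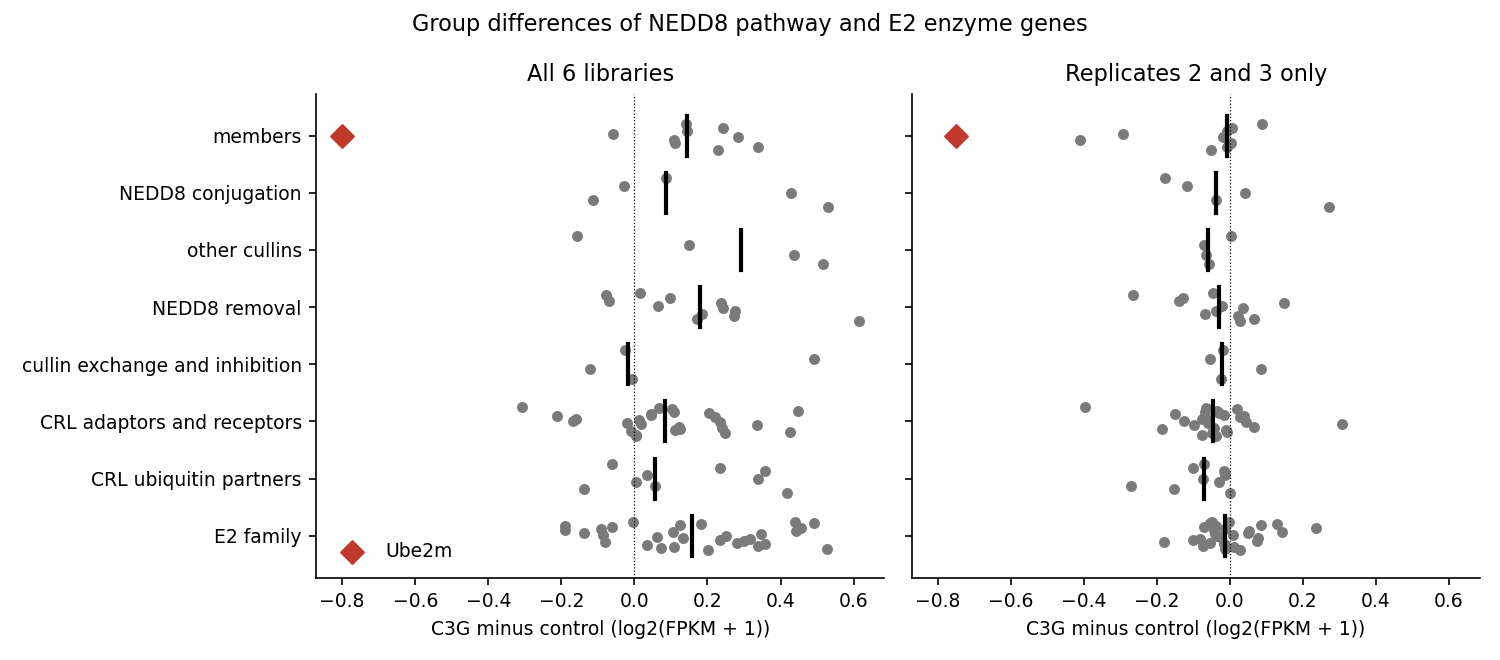
C3G minus control on the log2(FPKM + 1) scale for single genes (points) and their median (black bar) in each list, with all 6 libraries on the left and replicates 2 and 3 on the right, where CRL means cullin-RING ligase and the row of members holds the 10 genes, with its median taken without Ube2m. Ube2m (-0.80 and -0.75) lies below every other gene plotted, and the median of the other 9 genes is 0.14 on the left and -0.01 on the right.

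Ube2m was also set beside its wider enzyme family. Of 30 other genes whose symbols begin with Ube2 and a letter, most encode E2 enzymes or E2 variants for ubiquitin and related modifiers, and Ube2cbp encodes a protein that binds the E2 UBE2C. Limma called 0 of the 30, against 0.650% of all genes, and 0 reached an unadjusted p under 0.05. At that share a list of 30 would often hold no call, so nothing is read from this count. Of the 30, 22 were higher and 8 lower in C3G, beside 6960 higher and 4274 lower over all genes. Their differences ran from -0.19 for Ube2o to 0.53 for Ube2b, with a median of 0.16, and with replicates 2 and 3 alone the median was -0.01. Ube2b, an E2 of the DNA damage response, measured 7.94, 28.3 and 27.9 FPKM in control libraries and 26.3, 29.1 and 26.6 FPKM in C3G libraries (limma p = 0.287, exact permutation p = 0.8), and its difference was -0.01 with replicates 2 and 3 alone. Among the 30, groups without overlap were found for 2, Ube2h and Ube2v1, both higher in C3G, by 0.13 and 0.18 (limma p = 0.364 and 0.237, exact permutation p = 0.1 for each). Over all genes the share without overlap was 2.55% with higher and 1.48% with lower values in C3G.

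The nearest listed neighbours of Ube2m on chromosome 7 did not pass the test. Chmp2a, an ESCRT gene that lies on the same strand 313 bases away, measured 94.9, 52.9 and 53.7 FPKM in control libraries and 67.0, 51.2 and 54.3 FPKM in C3G libraries. Like Ube2m it was highest in control replicate 1, but the groups overlapped and the difference of -0.18 did not pass the test (limma p = 0.528, exact permutation p = 0.7). With replicates 2 and 3 alone it was -0.02, where Ube2m was at -0.75. The ratio of Ube2m to Chmp2a was 0.532, 0.686 and 0.654 in control libraries and 0.397, 0.432 and 0.361 in C3G libraries, and it too carries the selected fall of Ube2m. Zswim9, the nearest listed gene on the other side but 220692 bases away, was at 0.399 to 1.06 FPKM and differed by 0.05 (limma p = 0.771, exact permutation p = 0.9).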

How the data were processed

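RNA of 6 MC3T3-E1 samples, 3 per group by the sample labels, was sequenced from KAPA stranded libraries. The authors computed the deposited FPKM values with Ballgown. The submitters' processing notes also name cutadapt, HISAT2 2.1.0, StringTie, STAR 2.5.2b and the human build hg19, with no role given, although the gene identifiers are those of mouse. Strand use and gene filters are not given in the sources used here, and depth is unknown, so no counting error can be given.

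Symbols, positions, GC content and sequences came from GENCODE M21 (GRCm38), with 11211 identifiers matched and 23 not. Differences were fitted over all genes on log2(FPKM + 1) with limma 3.58.1 (lmFit, eBayes with trend) under R 4.3.3 and no term but group. A call needed a change of 1.2-fold or more and a two-sided unadjusted p below 0.05. P values were also adjusted by Benjamini-Hochberg over all genes. By limma 0 genes passed at an adjusted 0.05 and 74 had an unadjusted p under 0.05, and the ordinary linear model called 48 genes unadjusted. A pseudocount of 1 understates the changes of low genes. The fit was tested on simulated data with independent noise in each library. These held no shift by GC content or replicate number, so they do not cover those features.

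The replicate numbers are shared by both groups in the labels, which do not say that equal numbers share a culture or batch. Deviations from group means correlated at 0.653, 0.580 and 0.440 in numbers 1, 2 and 3. In other pairs they correlated at -0.640 to 0.307. Deviations within a group sum to 0, so these values depend on each other. Whether the numbers pair the samples was not tested. Alternatives covered the pseudocount, a filter, the variance model, scaling, GC correction, the replicate block, replicates 2 and 3 only, and each library left out. The pathway genes and lists were chosen with earlier results of these data known. Named genes were the 10 pathway genes, any called gene of a list and the gene with the largest difference in each list, the 5 genes most like Ube2m, and its nearest neighbours. Vhl, Cops5, Cand1, Ube2o, Ube2h, Ube2v1, Ube2cbp and Senp8 were named after their values were seen.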

Additional observations from a re-analysis of the deposited data

How the results depend on the processing

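Ube2m, chosen by its fall in these libraries, was lower in C3G in all 16 alternatives, from -0.91 to -0.55 on the log2 scale. Every C3G library was below every control library, so leaving out libraries could not turn this direction. The range is therefore a description only. It moved by more than the SD between replicates of 0.25 in 2 of them, GC correction and the replicate block with GC correction (-0.55 in both), and ran from -0.91 to -0.64 when each library was left out. Of the other 9 genes, 0 were called in 15 alternatives and 1, Nedd8, with replicates 2 and 3 only. Of the 60 other pathway genes, 0 were called in 15 alternatives and 3 under the replicate block with GC correction: Dcun1d2 (0.48), Senp8 (-0.34) and Vhl (-0.37). The replicate block by itself, which joins libraries of the same number, called 0 of the 9 and 0 of the 60. It changed no other call among the named genes that were tested, which leaves out Ube2m and the 5 genes most like it. Over all genes 73 were called, against 48 with the ordinary linear model, 135 with GC correction, 169 with the replicate block, 246 with both and 191 with replicates 2 and 3 only. Leaving out 1 library gave 40 to 144, with 144 without control replicate 1, 127 without control replicate 2, 45 without C3G replicate 1, 40 without C3G replicate 2 and 43 without C3G replicate 3. The cause was not tested. With 3 libraries per group and no known depth, the widest interval among the 9 genes was that of Dcun1d1 (-1.03 to 1.25).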

Other observations

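The genes whose log2 level over the 6 libraries was most like that of Ube2m, among 4759 genes whose mean FPKM was 5 or more and whose log2 SD was 0.2 or more, were Nupr1 (Pearson's r = 0.979), Selenow (0.972), Selenoh (0.948), Dynll2 (0.943) and Ppp1r15a (0.939). The 6 points share the 2 groups and the departure of control replicate 1, so these values describe likeness only. Nupr1, a stress-induced chromatin protein gene, went from 6.30 ± 0.925 FPKM in control cells to 4.38 ± 0.167 FPKM in C3G-treated cells (SD, n = 3 each). Selenow and Selenoh, which encode small selenoproteins, went from 124.3 ± 32.6 to 79.5 ± 15.6 FPKM and from 40.5 ± 22.7 to 18.6 ± 3.30 FPKM. Dynll2, a dynein light chain gene, went from 54.7 ± 13.3 to 31.6 ± 1.97 FPKM. Ppp1r15a, which encodes a phosphatase subunit of the integrated stress response, went from 10.9 ± 3.63 to 6.10 ± 0.50 FPKM. By qRT-PCR, the paper found no significant difference in Ppp1r15a with C3G. For each of these 5 genes, chosen by their likeness to Ube2m, control replicate 1 was the highest library, as it was for Ube2m. Without that library the log2 difference went from -0.97 to -0.55 for Selenoh and from -0.70 to -0.47 for Ppp1r15a. It went from -0.63 to -0.42 for Selenow, from -0.75 to -0.58 for Dynll2 and from -0.44 to -0.34 for Nupr1.

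NRF2, a transcription factor of antioxidant genes, is a substrate of the ligase that CUL3 forms with KEAP1. Of a list of 7 of its target genes, 6 were measured and Slc7a11 was not analysed here. Limma called 0 of the 6, against 0.650% of all genes, and 0 reached an unadjusted p under 0.05, so this count says little about so short a list. The median difference was -0.04 with 2 genes higher and 4 lower, and with replicates 2 and 3 alone all 6 were lower, with a median of -0.14. Nqo1, a quinone reductase gene, measured 35.5, 64.3 and 54.1 FPKM in control libraries and 88.5, 66.0 and 51.7 FPKM in C3G libraries. The libraries numbered 1 differed in Nqo1 by 1.29 on the log2 scale and those numbered 2 and 3 by 0.04 and -0.06, and the group difference of 0.42 did not pass the test (limma p = 0.188, exact permutation p = 0.4).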
